A study of Homo sapiens with 6 samples.

Results

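SAT1 and 9 other genes of polyamine metabolism were followed by RNA-seq in 293T, a cell line derived long ago from human embryonic kidney. The 10 genes were taken by symbol from the 61806 genes of the deposited table, and each symbol matched a single row. The other 9 genes were added for their function, though with earlier results of these data known. SAT1 was chosen by its measured counts and FPKM, which differed between the groups compared here. The values of SAT1 are therefore described without a test, and the tests concern the other genes. Cells had been transfected with Lipo2000, a lipid reagent, carrying either a plasmid labelled GFP (3 libraries) or a plasmid labelled GFP-812 (3 libraries). GFP is a fluorescent marker protein, and the labels do not explain the number in GFP-812. The series title names truncated NEK1, a protein kinase, and the NEK1 count checks the labels: NEK1 had 131045, 132239 and 142064 counts in the GFP-812 libraries and 1007, 1050 and 1026 in the GFP libraries. Both groups thus received a plasmid and the same reagent, and RNA from the plasmid cannot be told apart from that of the cells' own NEK1 gene.

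Polyamines are small positively charged molecules that bind nucleic acids and are needed for growth and translation. Ornithine decarboxylase (ODC1) makes putrescine from ornithine, S-adenosylmethionine decarboxylase (AMD1) supplies aminopropyl groups, and spermidine synthase (SRM) and spermine synthase (SMS) add these groups in turn. On the way back, spermidine/spermine N1-acetyltransferase (SAT1) acetylates spermidine and spermine, PAOX oxidises the acetylated forms, and SMOX oxidises spermine directly. Antizymes (OAZ1, OAZ2) bind ODC1 and send it to the proteasome, and the antizyme inhibitor AZIN1, an inactive relative of ODC1, binds antizyme in its place.

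The libraries held 14255148 to 17613814 counts. GFP replicate 3 was not clearly closer to its own group than to the other. Its log2 CPM (counts scaled to library size) had a Pearson r of 0.9897 and 0.9899 with GFP replicates 1 and 2, and of 0.9896, 0.9895 and 0.9903 with GFP-812 replicates 1, 2 and 3, across genes, which are not independent replicates. Ribosomal protein genes took 5.90%, 5.70% and 6.44% of its group's counts in replicates 1, 2 and 3, and 6.39%, 6.45% and 6.45% in the GFP-812 libraries. Results are therefore also given without GFP replicate 3. That library was picked for its likeness to GFP-812, so leaving it out favours larger differences between the groups and more calls. The labels call the cells epithelial and the tissue kidney. Of 5 markers listed as epithelial, the keratins KRT8 and KRT18 had a mean of at least 1 FPKM (counts scaled to exon length and to library total). CDH2 did too, but it is not particular to epithelial cells, and EPCAM and CDH1 did not. The 5 markers of this list summed to 33.6 to 35.9 FPKM in GFP-812 and 32.6 to 33.0 in GFP, without overlap. The 5 kidney tubule and podocyte markers, of which 1 reached a mean of 1 FPKM, summed to 1.62 to 1.96 and 1.46 to 1.82 FPKM. Leukocyte markers (1 of 5 reaching a mean of 1 FPKM, PTPRC listed at 0) summed to 1.55 to 1.82 in GFP-812 and 0.65 to 1.67 in GFP, fibroblast markers (1 of 6) to 2.73 to 3.36 and 2.35 to 2.90, and endothelial markers (0 of 3) to 0.02 to 0.03 and 0.03 to 0.04. No marker in these 5 lists passed the test described below, and their part in the results was not tested.

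SAT1 RNA was higher in every GFP-812 library than in any GFP library. SAT1 (ENSG00000130066, hg38 chromosome X, 23783173 to 23786210, plus strand) stood at 52.68, 51.93 and 54.97 FPKM in GFP-812 replicates 1, 2 and 3. In GFP replicates 1, 2 and 3 it stood at 31.74, 33.40 and 40.79 FPKM. The GFP-812 libraries lay close together, and among the GFP libraries replicate 3 was nearest to them without reaching them. The coefficient of variation was 2.98% in GFP-812 and 13.6% in GFP, whereas counting error alone at 1272 to 2403 SAT1 counts gives 2.04% to 2.80%. The fitted difference was 0.60 on the log2 scale (1.52-fold), and it was 0.72 without GFP replicate 3 and 0.54 without GFP replicate 1. Among 7007 genes with a mean of at least 5 FPKM, SAT1 ranked 13 by the size of its increase in the fit. SAT1 was chosen by this difference, so a high rank follows from the choice. NEK1, at a log2 difference of 7.08, is among the genes above it. The share of ribosomal protein genes in GFP replicate 3, given above, lay among those of the GFP-812 libraries, and its part in the SAT1 values was not tested. In bulk RNA, fewer cells of a type and less RNA per cell cannot be told apart, here as for the other genes.

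**Figure D1:**
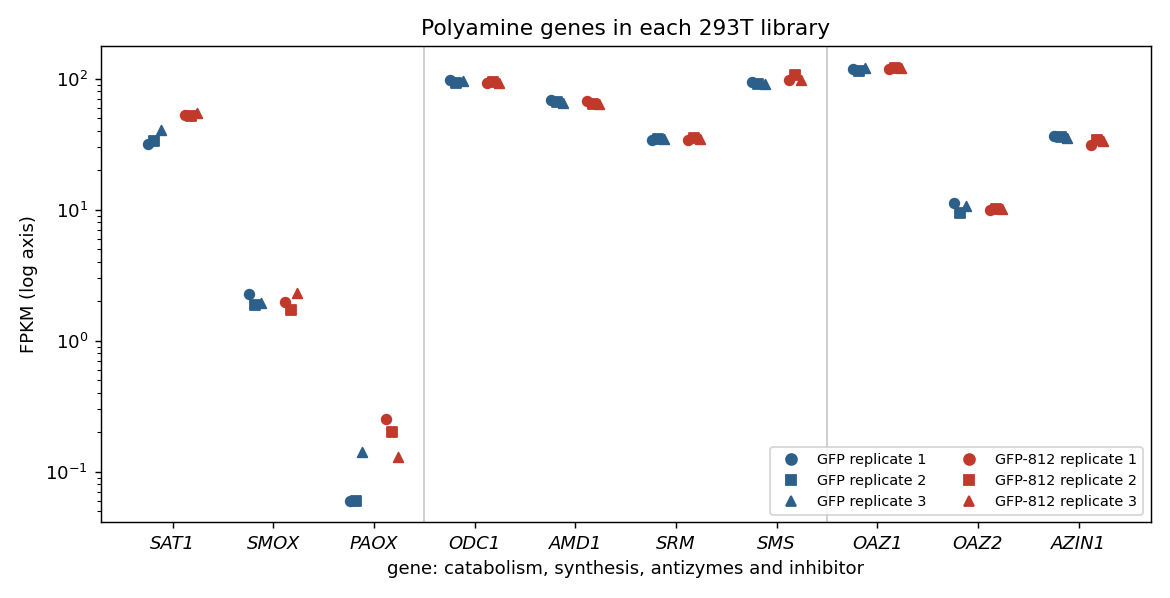
FPKM of each polyamine gene (log axis) in the 3 GFP libraries (blue) and the 3 GFP-812 libraries (red), with marker shapes for replicates 1 to 3 and grey lines between catabolic genes, synthetic genes, and antizymes with their inhibitor. SAT1 lies at 31.74 to 40.79 FPKM in GFP and 51.93 to 54.97 in GFP-812, while ODC1, AMD1, SRM and OAZ1 overlap between the groups.

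SAT1 RNA is known to be spliced in alternative ways, and inclusion of an extra exon with premature stop codons sends the transcript to decay. GENCODE 29, on the same build as the table, lists 9 SAT1 transcripts, of which 4 are annotated as protein-coding. The exon is shown because the deposited counts add all SAT1 transcripts together and do not separate those with it from those without. It is exon 4 of the 7 exons of SAT1-209, a processed transcript, and is absent from the 6-exon coding transcript SAT1-204. It spans 110 bases at chrX:23784294-23784403 on the plus strand of hg38, and capitals mark the first stop codon in the reading frame of SAT1-204:
SAT1 extra exon: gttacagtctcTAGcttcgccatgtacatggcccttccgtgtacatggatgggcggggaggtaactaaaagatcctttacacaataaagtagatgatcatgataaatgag
That TAG begins at base 12 of the exon and follows 71 codons, against 171 codons in the coding sequence of SAT1-204. How the difference in SAT1 counts divides between these transcripts was not analysed here. The annotated span also holds an unnamed gene, ENSG00000288706 (chromosome X, 23783278 to 23783367), that had 0 counts in all libraries together.

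The promoter of SAT1 is shown because SAT1 is the member whose RNA differed. RefSeq (GRCh38.p14) gives the 250 bases before its start at chrX:23782923-23783172, plus strand. Capitals mark each CCAAT on either strand:
SAT1 promoter: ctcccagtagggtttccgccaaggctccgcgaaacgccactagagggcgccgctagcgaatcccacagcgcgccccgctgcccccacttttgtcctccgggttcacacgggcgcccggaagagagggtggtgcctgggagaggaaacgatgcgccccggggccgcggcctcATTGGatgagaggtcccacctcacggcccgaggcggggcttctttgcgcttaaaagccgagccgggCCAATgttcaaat
The 2 matches begin 79 and 13 bases before the start, the first on the minus strand. The CCAAT box was present in 33.0% of 27305 promoters of the same length. Both strands were also searched for 6 other motifs. The TATA box TATAAA was in 11.1% of promoters and the GC box GGGCGG in 42.3%. The E-box CACGTG was in 6.49% of promoters, and the hypoxia element core ACGTG, which every E-box also contains, was in 18.7%. The cyclic AMP response core TGACG was in 21.7% and the antioxidant response element TGACNNNGC in 11.03%, and a sequence can match both. The SAT1 window held no match to these 6 motifs, which says nothing about sites elsewhere. GC content was 66.4%, against a median of 58.0%. Promoter entries were found for 7 of the 10 genes. CCAAT was also present in those of SRM, SMS and OAZ1, and CACGTG in that of SRM alone. GGGCGG was in those of ODC1, AMD1, SRM, SMS, OAZ1 and OAZ2, so SAT1 was the only entry without it. TGACG was in those of ODC1, AMD1 and SMS, and ACGTG in those of SRM and SMS. TATAAA and TGACNNNGC were in none.

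The other catabolic genes were scarce. SMOX (ENSG00000088826, chromosome 20) stood at 1.98, 1.70 and 2.31 FPKM in GFP-812 and 2.27, 1.86 and 1.92 FPKM in GFP replicates 1, 2 and 3. The groups overlapped, and the log2 difference was 0.00 (95% interval -0.34 to 0.34; edgeR quasi-likelihood adjusted p = 0.999). SMOX had 78 to 120 counts per library, and the interval spans sizeable differences in either direction. PAOX (ENSG00000148832, chromosome 10) had 8, 7 and 5 counts in GFP-812 and 2, 2 and 5 counts in GFP replicates 1, 2 and 3, too few to be tested. Scaled by library totals, the summed counts of 20 and 9 gave a ratio of 2.26 (95% exact interval 0.984 to 5.64, for counting error only), and the groups met at 5 counts. An unnamed gene on the same strand, ENSG00000254536, spans most of PAOX and had 229 counts. Reads that fit both genes may have been left out or counted for that gene, so the PAOX counts may be too low. SAT2, a relative of SAT1, stood at 12.2 ± 1.11 against 12.4 ± 1.26 FPKM (SD, n = 3 each), a log2 difference of -0.02 (95% interval -0.21 to 0.18; edgeR adjusted p = 0.96).

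None of the 4 synthetic genes passed the test. ODC1 (ENSG00000115758, chromosome 2) was at 92.51, 94.29 and 92.71 FPKM in GFP-812 and 97.06, 92.35 and 95.19 FPKM in GFP replicates 1, 2 and 3. Its groups overlapped, with a log2 difference of -0.01 (95% interval -0.09 to 0.07; edgeR adjusted p = 0.915). AMD1 (ENSG00000123505, chromosome 6) was at 67.24, 64.50 and 64.57 FPKM in GFP-812 and 69.00, 66.43 and 65.09 FPKM in GFP. These values overlapped as well, and the log2 difference was -0.02 (95% interval -0.09 to 0.06; edgeR adjusted p = 0.866). SRM (ENSG00000116649, chromosome 1) was at 33.96, 35.23 and 34.56 FPKM in GFP-812 and 34.04, 34.85 and 34.62 FPKM in GFP. Its log2 difference was 0.02 (95% interval -0.10 to 0.13; edgeR adjusted p = 0.929). Without GFP replicate 3 the log2 differences of ODC1, AMD1 and SRM were -0.01, -0.04 and 0.02, none of them passing.

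SMS, the enzyme that makes spermine, was the synthetic gene with the largest difference. SMS (ENSG00000102172, chromosome X, 21940709 to 21994837) was at 97.92, 105.88 and 97.27 FPKM in GFP-812 and 94.59, 91.23 and 91.21 FPKM in GFP replicates 1, 2 and 3. All GFP-812 libraries lay above all GFP libraries, with GFP-812 replicate 2 highest. The log2 difference of 0.13 (95% interval 0.05 to 0.22) did not pass the test over all genes (edgeR adjusted p = 0.0738; 0.0655 without GFP replicate 3). It passed with upper-quartile scaling (0.15, adjusted p = 0.0369) and when genes were kept by a mean FPKM of at least 1 (0.14, adjusted p = 0.0448), and over all alternatives its adjusted p ran from 0.0369 to 0.456. SMS and SAT1 lie 1788 kb apart on chromosome X. Of 6 tested genes between them 1 passed, PRDX4, at 0.15 (edgeR adjusted p = 0.0277), against 3.84% of all genes. PRDX4, a peroxiredoxin, is named after its value was seen. That call was lost with limma (adjusted p = 0.164 and 0.167), which called 3 and 2 of all genes. It was also lost in 5 of the 6 fits without a library (0.0991 to 0.135). PHEX-AS1, also named after its value was seen, had the largest difference of the 6 genes, 1.16 at a mean of 0.615 FPKM. It did not pass (edgeR adjusted p = 0.0976). The median log2 difference of the 6 genes was 0.000478. That of the 625 tested genes of chromosome X was 0.0502, beside 0.00686 for all genes tested. Of these 625 genes edgeR called 15 higher and 4 lower, against 1.18% and 2.67% of all genes. The 15 include PRDX4 and also SAT1, which was chosen by its difference, so these counts are only a description.

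Neither antizyme gene passed the test, and the inhibitor AZIN1 stood lower in each GFP-812 library without passing. The antizymes are shown by sequence because their protein is made only when ribosomes shift frame at a stop codon inside the coding region, a step that RNA counts do not report. The 48 bases around this stop codon are given for OAZ1 (chr19:2271420-2271467, plus strand) and OAZ2 (chr15:64691491-64691538, minus strand) from GENCODE 29 transcripts on hg38. Capitals mark the last codon of the first frame and the TGA stop codon after it:
OAZ1: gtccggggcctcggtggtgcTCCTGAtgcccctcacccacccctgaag
OAZ2: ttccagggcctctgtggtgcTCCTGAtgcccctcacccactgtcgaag
The stretches match at 41 of 48 bases, with an unbroken match of 27 bases around the capitals. The annotation writes the shift as a 1-base gap in the coding transcript, at 2271443 in OAZ1 and 64691515 in OAZ2, the T of TGA in each.

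OAZ1 (ENSG00000104904, chromosome 19) was at 118.82, 121.22 and 121.45 FPKM in GFP-812 and 118.87, 115.00 and 120.48 FPKM in GFP replicates 1, 2 and 3. The groups overlapped at a log2 difference of 0.04 (95% interval -0.03 to 0.12; edgeR adjusted p = 0.636). OAZ2 (ENSG00000180304, chromosome 15) was at 9.93, 10.04 and 10.13 FPKM in GFP-812, inside the GFP values of 11.18, 9.50 and 10.73 FPKM. Its log2 difference was -0.05 (95% interval -0.16 to 0.07; edgeR adjusted p = 0.738). Without GFP replicate 3, OAZ1 was at 0.06, OAZ2 at -0.03 and SMOX at -0.03, none of them passing. AZIN1 (ENSG00000155096, chromosome 8) was at 31.33, 33.78 and 33.52 FPKM in GFP-812 and 36.78, 35.87 and 35.45 FPKM in GFP. Every GFP-812 library lay below every GFP library, with GFP-812 replicate 1 lowest. The log2 difference of -0.12 (95% interval -0.20 to -0.03) did not pass (edgeR adjusted p = 0.108). Without GFP replicate 3 it was -0.13 and passed (adjusted p = 0.0351), and over all alternatives its adjusted p ran from 0.0351 to 0.399. The ratio of AZIN1 to OAZ1 FPKM was 0.264, 0.279 and 0.276 in GFP-812 and 0.309, 0.312 and 0.294 in GFP, given as a description of these libraries.

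**Figure D2:**
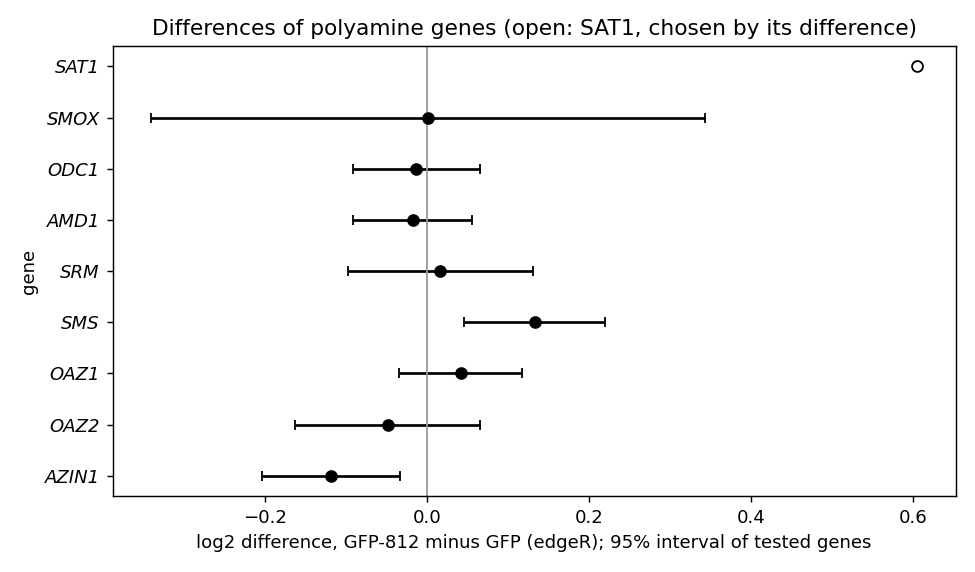
Fitted log2 difference of each polyamine gene (GFP-812 minus GFP, edgeR) with its 95% interval; SAT1 is drawn open and without an interval, since its difference led to its choice, and PAOX was not tested. SAT1 lies at 0.60, while the 8 tested genes run from -0.12 (AZIN1) to 0.13 (SMS).

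Of the 9 genes other than SAT1, 8 passed the filter on low counts and were tested, and 0 of these 8 rose or fell in edgeR at an adjusted p under 0.05. Across all 16834 genes tested, 3.84% were called (1.18% higher and 2.67% lower in GFP-812). At an unadjusted p under 0.05 there were 2 of the 8, SMS and AZIN1, against 16.1% of all genes. DESeq2, which gave no adjusted p for SMOX, and limma on log2(FPKM + 1) each called 0 and had 2 at an unadjusted p under 0.05. Over all genes DESeq2 called 3.01% and limma 0.0231%, so 0 calls by limma say little about these 8. The groups did not overlap for 1 gene upward (SMS) and 1 downward (AZIN1), against 20.1% of all genes for either direction, 7.93% upward and 12.1% downward. The median log2 difference of the 8 was -0.00613, beside 0.00686 for all genes tested. Without GFP replicate 3, 1 of the 8 fell (AZIN1), while 7.63% of all genes were then called.

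The order of levels across the 10 genes was led by OAZ1. Mean FPKM over the 6 libraries was 119.3 for OAZ1, 96.4 for SMS, 94.0 for ODC1, 66.1 for AMD1 and 44.3 for SAT1. It was 34.5 for both SRM and AZIN1, 10.3 for OAZ2, 2.01 for SMOX and 0.14 for PAOX. On the exon size of the table, ODC1 was at 94.9 ± 2.37 and SMS at 92.3 ± 1.95 FPKM in GFP, and at 93.2 ± 0.975 and 100.4 ± 4.79 FPKM in GFP-812 (SD, n = 3 each). On the same scale, SAT1 in GFP cells (35.3 ± 4.82 FPKM, SD, n = 3) could not be separated from SRM (34.5 ± 0.417) or AZIN1 (36.0 ± 0.68). In GFP-812 cells SAT1 (53.2 ± 1.58 FPKM, SD, n = 3) lay above SRM (34.6 ± 0.635) and AZIN1 (32.9 ± 1.35) in every library. Of the summed FPKM of the 10 genes, SAT1 made up 10.4%, 10.0% and 10.7% in GFP-812 and 6.40%, 6.95% and 8.23% in GFP replicates 1, 2 and 3. The ratio of SAT1 to ODC1 FPKM was 0.571 ± 0.0211 in GFP-812 and 0.372 ± 0.0516 in GFP (SD, n = 3 each).

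These levels depend on the gene length used. The table divides by the size of all annotated exons of a gene, 2482 bases for SAT1, whereas its principal coding transcript in GENCODE 29 has 1065 bases. Dividing by the principal transcript instead, an alternative chosen after seeing the data, raised AMD1 from 66.1 to 196.1 and made it second to OAZ1 (357.1), with ODC1 at 117.2, SMS at 106.3 and SAT1 at 103.1. This takes all reads of a gene as coming from its principal transcript, which was not checked, and reads outside that transcript inflate the value. The table size was 1.10 (SMS) to 3.97 (OAZ2) times the principal length, and 2.96 times for AMD1. In the mean over all libraries AMD1 moved from place 4 to place 2 and SMS from place 2 to place 4. On this length SAT1 was at 82.3 in GFP, well above SRM (51.6) and AZIN1 (46.8), so the tie of these 3 genes was lost. ODC1 then stood above SMS in both groups, at 118.3 against 101.8 in GFP and 116.1 against 110.7 in GFP-812. SAT1 stood below both in GFP but above both in GFP-812, at 124.0, so whether SAT1 or ODC1 was higher in GFP-812, and the size of their ratio, depend on the length. Differences between the groups do not change with the length.

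The 5 genes whose pattern was most like that of SAT1 were no members of the set. Likeness was the root mean square distance between log2 CPM profiles, each centred on its own mean over the 6 libraries, among 6874 genes with a symbol and a mean of at least 5 FPKM. The 5 nearest were ALDOC, a glycolytic aldolase (distance 0.123), TMEM205 (0.123), OSTN, a secreted peptide (0.126), BMP6, a growth factor of the TGF-beta family (0.135), and RPL13AP25 (0.137), a pseudogene that can share reads with RPL13A; the median distance was 0.335. ALDOC stood at 15.58, 14.24 and 15.19 FPKM in GFP-812 and 10.53, 11.23 and 13.35 FPKM in GFP replicates 1, 2 and 3. BMP6 stood at 7.32, 7.01 and 7.64 FPKM in GFP-812 and 5.40, 5.55 and 6.43 FPKM in GFP. As in SAT1, GFP replicate 3 was the highest GFP library in ALDOC, TMEM205, BMP6 and RPL13AP25. In OSTN it was not: the GFP libraries stood at 5.04, 5.75 and 5.36 FPKM, below 7.66, 7.31 and 7.98 FPKM in GFP-812. Their Pearson r with SAT1 ran from 0.929 to 0.991 over 6 libraries that share the group difference by which the genes were found.

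**Figure D3:**
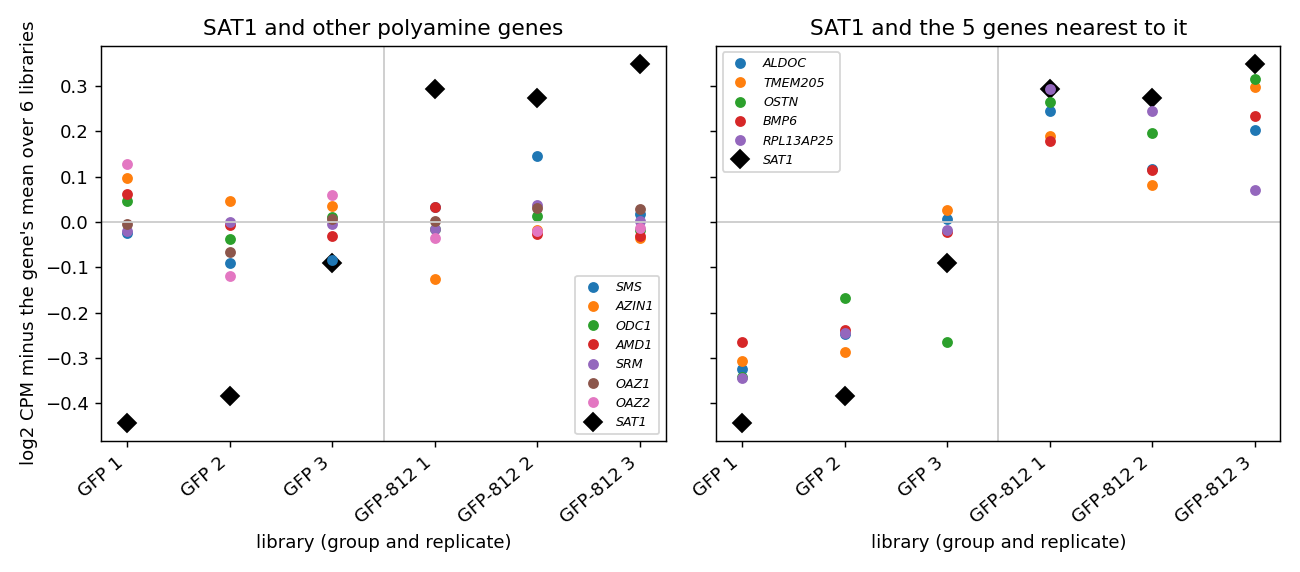
Log2 CPM of each gene minus its own mean over the 6 libraries, per library (x axis), for SAT1 (black diamonds) beside SMS, AZIN1, ODC1, AMD1, SRM, OAZ1 and OAZ2 (left) and beside the 5 genes nearest to SAT1 (right). SAT1 runs from -0.44 in GFP replicate 1 to 0.35 in GFP-812 replicate 3, and the other genes on the left stay between -0.13 and 0.15. SMOX, which is not drawn, runs from -0.22 in GFP-812 replicate 2 to 0.21 in GFP-812 replicate 3.

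Genes that feed, move or use polyamines also gave no call. Of 49 related genes 41 were tested, 0 rose and 0 fell in edgeR, and 8 were not tested for low counts; 8 of the 41 had an unadjusted p under 0.05, against 16.1% of all genes. Limma on log2(FPKM + 1) called 0 of 33 with 5 at an unadjusted p under 0.05, and DESeq2, which gave no adjusted p for AOC2, called 1, SLC3A2, with 6. Over all genes limma called 0.0231% and DESeq2 3.01%. The groups did not overlap for 2 of the 41 upward and 6 downward, against 7.93% and 12.1% of all genes. The median log2 difference of the 41 was -0.0159, beside 0.00686 for all genes. Without GFP replicate 3, 2 rose and 4 fell, in a fit that called 7.63% of all genes. These were AHCY, which recycles S-adenosylhomocysteine (0.13, edgeR adjusted p = 0.0394), MYC, a transcription factor known to drive ODC1 (0.14, 0.0123), SLC3A2, an amino acid transporter chain linked to polyamine export (-0.14, 0.0268), the transport ATPase ATP13A3 (-0.13, 0.025), the amine oxidase AOC2 (-0.54, 0.0347) and NFE2L2, the antioxidant response factor (-0.24, 0.013). AHCY, ATP13A3 and NFE2L2 are named after their values were seen. With all libraries none of these 3 passed, at 0.10 (edgeR adjusted p = 0.241), -0.11 (0.130) and -0.19 (0.0804). Without GFP replicate 1, NFE2L2 was at -0.11 (0.548) and MYC at 0.06 (0.677).

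By role, the most abundant gene of each group is given with all libraries. On ornithine supply (6 of 7 tested), OAT, an aminotransferase of ornithine in mitochondria, had a log2 difference of 0.04 (95% interval -0.04 to 0.12, edgeR adjusted p = 0.695). On the methionine cycle and salvage of methylthioadenosine, the by-product of SRM and SMS (8 of 9 tested), MAT2A, which makes S-adenosylmethionine, was at -0.03 (-0.11 to 0.05; 0.778). On the hypusine pathway, in which spermidine is used to modify a translation factor (4 of 4 tested), that factor, EIF5A, was at 0.05 (-0.03 to 0.13; 0.532). On transport and uptake (10 of 15 tested), SLC3A2 stood at 25.44, 27.19 and 25.79 FPKM in GFP-812 and 29.58, 28.64 and 28.77 FPKM in GFP. Its groups did not overlap, and the log2 difference of -0.14 (-0.22 to -0.05) did not pass (edgeR adjusted p = 0.0619). On diamine oxidation (2 of 3 tested), AOC2 stood at 2.31, 1.82 and 2.42 FPKM in GFP-812 and 3.22, 3.18 and 2.91 FPKM in GFP, again without overlap, at -0.49 (-0.81 to -0.18; edgeR adjusted p = 0.0587). Of the 7 regulators, all tested, MYC was at 63.2 ± 3.03 against 59.9 ± 3.86 FPKM (SD, n = 3 each), overlapping. Its log2 difference was 0.09 (95% interval 0.00496 to 0.18, edgeR adjusted p = 0.271). The other 6 had fitted differences from -0.19 to -0.04, and none passed (edgeR adjusted p of 0.0804 or more). Among relatives of the antizymes and of SAT1 (4 of 4 tested), SAT2 was the most abundant and is described above.

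**Figure D4:**
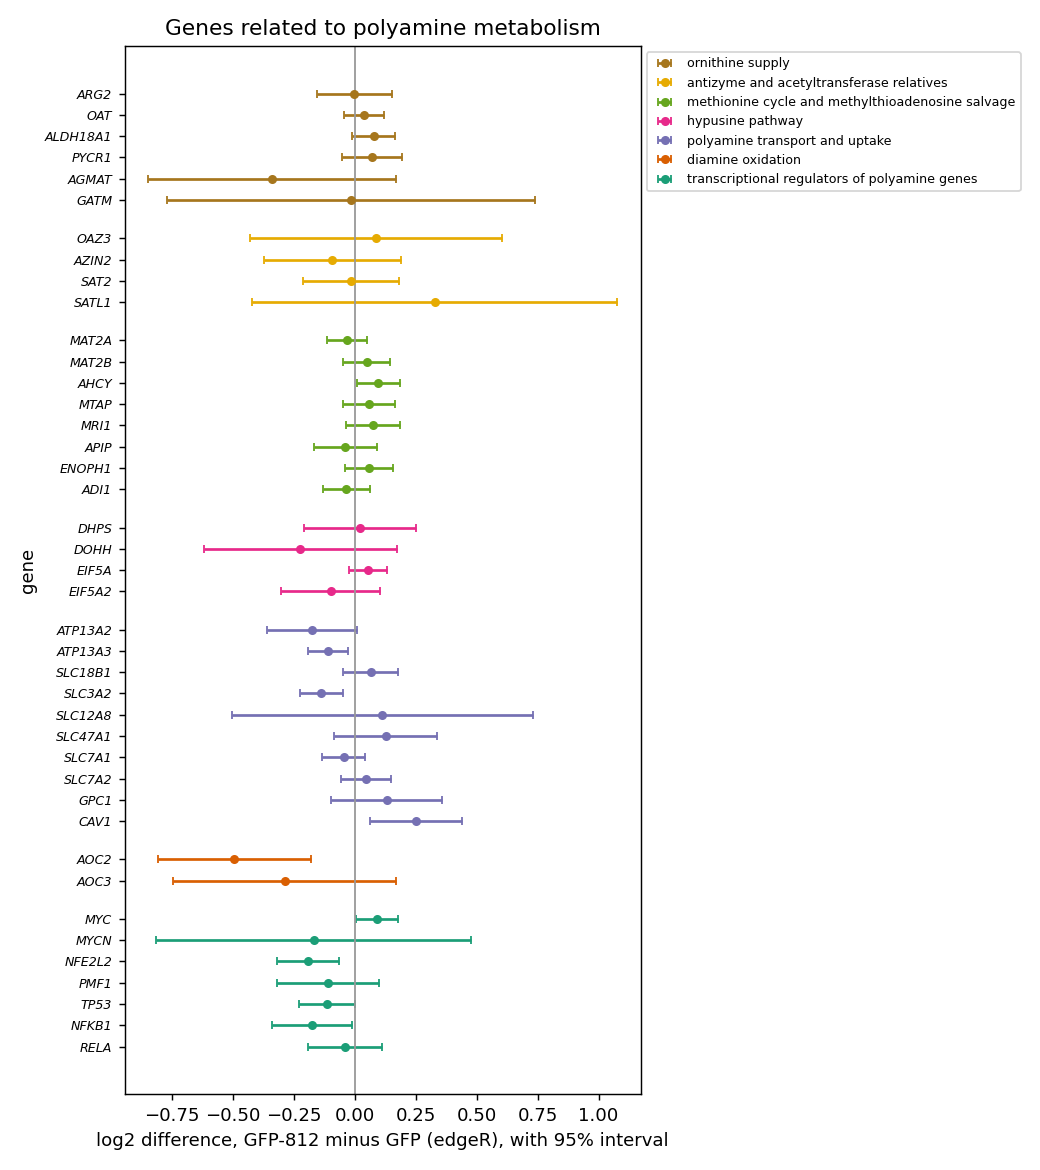
Fitted log2 difference (GFP-812 minus GFP, edgeR) with its 95% interval for the 41 tested related genes, coloured by role. The points run from -0.49 (AOC2) to 0.33 (SATL1, with few counts), and none passed an adjusted p under 0.05.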

How the data were processed

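The members and gene lists were chosen with earlier results of these data known. The authors deposited raw counts per gene and FPKM for 6 libraries of poly(A) RNA in one table, per the file headers; the submitters' processing notes name FastQC 0.10.1, cutadapt 1.9.1, HISAT2 2.2.1, HTSeq 0.6.1 and hg38. The sources used here give neither strand setting nor annotation release, so overlapping genes cannot be fully separated. Count, exonic size and library total returned 100% of the deposited FPKM within 0.0051.

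Counts of all genes passing filterByExpr were fitted with edgeR 4.0.16 (R 4.3.3; TMM, group as the only term, quasi-likelihood test), with p-values adjusted by Benjamini-Hochberg over 16834 genes at 0.05. Intervals use the SE from the F statistic. The procedure was run on counts simulated from its own fitted spread, with libraries drawn independently. That setting cannot show the effect of an outlying library or of technical replicates. No label says that replicates were separate cultures, so the spread behind the p-values may be technical. No pair of libraries within a group matched within counting noise (chi-square per degree of freedom 2.13 to 4.03).

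Alternatives were other scalings and filters, NEK1 left out, DESeq2 1.42.0, limma 3.58.1 (mean FPKM of at least 1), a replicate block and leaving out each library. Named were the 10 members, NEK1, related genes past the threshold, the most abundant related gene of each role and the 5 genes nearest to SAT1; others are marked as named after seeing their values.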

Additional observations from a re-analysis of the deposited data

How the results depend on the processing

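The log2 difference of SAT1 was 0.586 to 0.62 under the 9 other settings with all libraries and 0.54 to 0.72 when a library was left out. Called members other than SAT1 numbered 0 upward and 0 downward, except 1 upward (SMS) with upper-quartile scaling and with a mean FPKM of at least 1; without single libraries they ran from 0 to 0 upward and from 0 to 1 downward. Called related genes numbered 1 downward with DESeq2 (SLC3A2) and 1 downward with the replicate block (AOC2), and ran from 0 to 2 upward and 0 to 4 downward without single libraries, with the highest values without GFP replicate 3. The cause was not tested. Calls over all genes numbered 647, against 3 and 2 with limma at pseudocounts of 1 and 0.1, 506 with DESeq2 and 777 with the replicate block, and ran from 209 to 1317 without single libraries. Upward calls were 198, against 128 with DESeq2 and 280 with upper-quartile scaling, where 339 were downward.

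Differences near 0 changed sign. SMOX was at -0.000277 with median-of-ratios scaling, -0.00368 without the filter, -0.00166 with DESeq2, -0.0121 and -0.0188 with limma at pseudocounts of 1 and 0.1 and -0.00202 with the replicate block; ODC1 was at 0.00192 with upper-quartile scaling. The median of the 8 members was 0.00921 with upper-quartile scaling and 0.00155 with the filter on a mean FPKM of 1, and that of the related list was 0.0163 without the filter and 0.00509 with the filter on a mean FPKM of 1. Without single libraries the ranges that crossed 0 were -0.12 to 0.11 for SMOX, -0.0367 to 0.00671 for ODC1, -0.0432 to 0.00885 for AMD1, -0.12 to 0.00452 for OAZ2, -0.0989 to 0.0602 for SAT2, -0.0642 to 0.0196 for MAT2A, -0.0318 to 0.00947 for the members' median and -0.0326 to 0.0212 for that of the related list. No label says that the replicate numbers pair libraries, so they were not taken as pairs. Deviations of same-numbered libraries from their group means had r = 0.0318, -0.0102 and 0.00614 for replicates 1, 2 and 3. Libraries of unlike number had r from -0.0318 to 0.0264. Counting noise brings such values near 0, so they cannot exclude pairing. The replicate block changed no call of a member and gave SMS an edgeR adjusted p of 0.061 and AZIN1 one of 0.098. Depth limits PAOX and SMOX.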
